A study of Homo sapiens with 8 samples.

Results

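Mitochondrial ribosomal protein genes were taken as all genes whose array annotation gives a lone symbol that starts with MRPL or MRPS and a digit, with the brightest probe set standing for a gene. By this rule 16 of the 7713 named genes on the 12 h array and 51 of the 11963 on the 6 h array were members, and all 16 were on both. The MRPL genes, named for the large subunit, numbered 10 at 12 h and 31 at 6 h, and the MRPS genes, named for the small subunit, 6 and 20. RefSeq lists 77 protein-coding genes with such symbols, so the 12 h array covers a small share of the particle.

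The cells were MRC5, a line of diploid human lung fibroblasts, all in medium with serum, penicillin and streptomycin. They received 10 µM 8-oxoguanine, a guanine base damaged by oxidation, or only the solvent as mock, and no engineered allele is named. Total RNA was read on 8 arrays, with 1 array per treatment at 6 h and, on a smaller type, 3 per treatment at 12 h, whose titles call them technical replicates by extract. The p-values therefore measure the spread between extracts, and n = 3 counts extracts. Whether the extracts came from separate cultures is not stated. If they did not, the p-values and intervals do not measure variation between cultures. The arrays' number also limits the precision. The question was how exposure to the free base alters the transcriptome at each time, and each time was set against its own mock. In RNA from whole cultures, fewer cells of a type and less RNA per cell cannot be told apart.

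Mitochondrial ribosomes translate the few proteins encoded by mitochondrial DNA, all of them membrane subunits of the respiratory chain and ATP synthase. Their RNA comes from mitochondrial DNA, but every protein of the particle is encoded in the nucleus, made in the cytosol and imported. Some proteins descend from bacterial ribosomal protein families and others are found only in mitochondria. The names are older than the structures of the human particle, in which MRPS30 and MRPS18A lie in the large subunit. The genes were grouped by symbol here.

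The promoters of 3 genes are shown because these genes had the clearest differences at 12 h: MRPL17 and MRPS12, which fell, and MRPS30, the member whose treated signals all lay above the mock signals. Each holds the 250 bases before the RefSeq start and 30 bases counted from the start itself, 5′ to 3′ on the gene's strand, in build GRCh38.p14. MRPL17 lies at chr11:6683311-6683590 on the minus strand, MRPS12 at chr19:38930694-38930973 on the plus strand and MRPS30 at chr5:44808697-44808976 on the plus strand. Capitals mark matches, on either strand, to the motifs searched. For the factor NRF1 these letters were GCGCANGCG, for ETS factors such as GABP they were CCGGAAG, and for YY1 they were AAGATGGCG. The E-box read by MYC was CACGTG, the CCAAT box was named by its letters, the TATA box was TATAAA and the GC box was GGGCGG.
MRPL17: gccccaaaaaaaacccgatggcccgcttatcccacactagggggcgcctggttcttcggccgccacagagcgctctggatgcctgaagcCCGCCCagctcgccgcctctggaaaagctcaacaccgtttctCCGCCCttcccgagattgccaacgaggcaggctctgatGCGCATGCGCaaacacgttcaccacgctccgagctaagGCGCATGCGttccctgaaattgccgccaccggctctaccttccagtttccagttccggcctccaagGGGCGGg
MRPS12: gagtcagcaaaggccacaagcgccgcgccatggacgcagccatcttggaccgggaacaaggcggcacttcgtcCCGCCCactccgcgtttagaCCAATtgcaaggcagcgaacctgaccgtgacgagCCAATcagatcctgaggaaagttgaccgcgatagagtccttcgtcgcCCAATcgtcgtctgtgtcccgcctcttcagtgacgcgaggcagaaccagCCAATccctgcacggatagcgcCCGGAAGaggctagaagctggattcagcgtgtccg
MRPS30: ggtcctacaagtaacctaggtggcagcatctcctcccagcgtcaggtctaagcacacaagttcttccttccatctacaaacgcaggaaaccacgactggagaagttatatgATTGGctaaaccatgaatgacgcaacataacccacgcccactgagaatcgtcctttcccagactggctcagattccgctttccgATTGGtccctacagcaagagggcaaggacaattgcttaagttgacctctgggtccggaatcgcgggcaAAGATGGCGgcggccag
NRF1, GABP and YY1 are transcription factors known to act on many nuclear genes of mitochondria. MRPL17 held 3 NRF1 matches, which begin 81, 80 and 43 bases before the start, and 3 GC boxes. MRPS12 held 4 CCAAT boxes, 1 GC box and 1 ETS match, which begins 5 bases before the start. MRPS30 held 2 CCAAT boxes and a YY1 match just after its start. The first 2 NRF1 matches are on opposite strands and overlap, and no other matches shown overlap. A match describes letters and is not a binding site.

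Promoter entries, of 300 bases each, were found for 45 of the 51 genes. The ETS letters were in 19 of them, 42.2%, against 16.5% of 15843 protein-coding genes. The YY1 letters were in 8, 17.8%, against 3.21%, and with 1 more letter (a final G) still in 8, against 2.22%. The NRF1 letters were in 8, 17.8%, against 12.6%, but with a final C added in 4, 8.89%, against 9.67%, so on which side of the background this share fell depended on the motif's length. The E-box was in 5, 11.1%, against 10.9%. CCAAT was in 14 (31.1%, against 42.1%), the TATA box in 2 (4.44%, against 12.4%) and the GC box in 27 (60%, against 64.3%). Of the 15 genes of the 12 h array with an entry, 7 held the ETS letters (MRPL3, MRPL28, MRPL33, MRPL40, MRPL58, MRPS12 and MRPS31), and of these MRPS12 alone passed the test at 12 h.

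All 9 fibroblast markers on the 12 h array, among them COL1A1 and VIM, were above the limit for dim probe sets, a signal of 93.9. This limit kept 5248 of 8746 probe sets, so passing it says little about cell type by itself. Of the 9, LUM rose by 1.07 and PDGFRB by 0.30 on the log2 scale, S100A4 fell by 0.58 (limma adjusted p = 0.0034, 0.0446 and 0.00302), and the other 6 did not pass. Of 14 epithelial, endothelial and blood markers, 4 were above the limit (KRT19, CD3E, PECAM1 and HBB). The rest, EPCAM, CDH1, KRT5, KRT7, KRT14, CDH5, VWF, TEK, CD14 and PTPRC, lay below it. The summed signal of the 14 was 759 to 877 on the treated and 970 to 1089 on the mock arrays, with KRT19 falling from 277 ± 6.24 to 116 ± 21.1 (SD, n = 3; limma adjusted p = 0.00145), and the part of these markers in the results below was not tested. A sign of RNA quality, how strongly the 3′ end of actin mRNA read relative to its 5′ end, was 0.999 to 1.07 on the treated and 0.889 to 0.995 on the mock arrays at 12 h. The same ratio for GAPDH overlapped between the groups, at 0.802 to 0.843 treated and 0.779 to 0.826 mock. The part of RNA quality in the results was not tested.

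At 12 h all 16 genes were above the limit, and 2 fell while none rose in limma's moderated test with Benjamini-Hochberg adjustment over 5248 probe sets. The genes that fell were MRPL17, by 0.53 on the log2 scale, and MRPS12, by 0.30. The other 14 genes did not pass. Of all probe sets tested, 13.2% passed, 6.65% lower and 6.59% higher, so 2 of 16 is near the background. The 695 calls among all probe sets became 371 to 652 when single arrays were left out, with 371 without 8-oxoguanine replicate 1, 383 without 8-oxoguanine replicate 2 and 450 without mock replicate 3, and the 2 calls among the 16 genes became 1 each time. At an unadjusted p under 0.05, 3 of the 16 genes passed, 18.8%, against 28.7% of all probe sets. The median log2 fold change was -0.09 over the 16 genes and 0.01 over all probe sets, and 12 genes lay below 0 and 4 above, with 48.6% of all probe sets below 0.

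**Figure D1:**
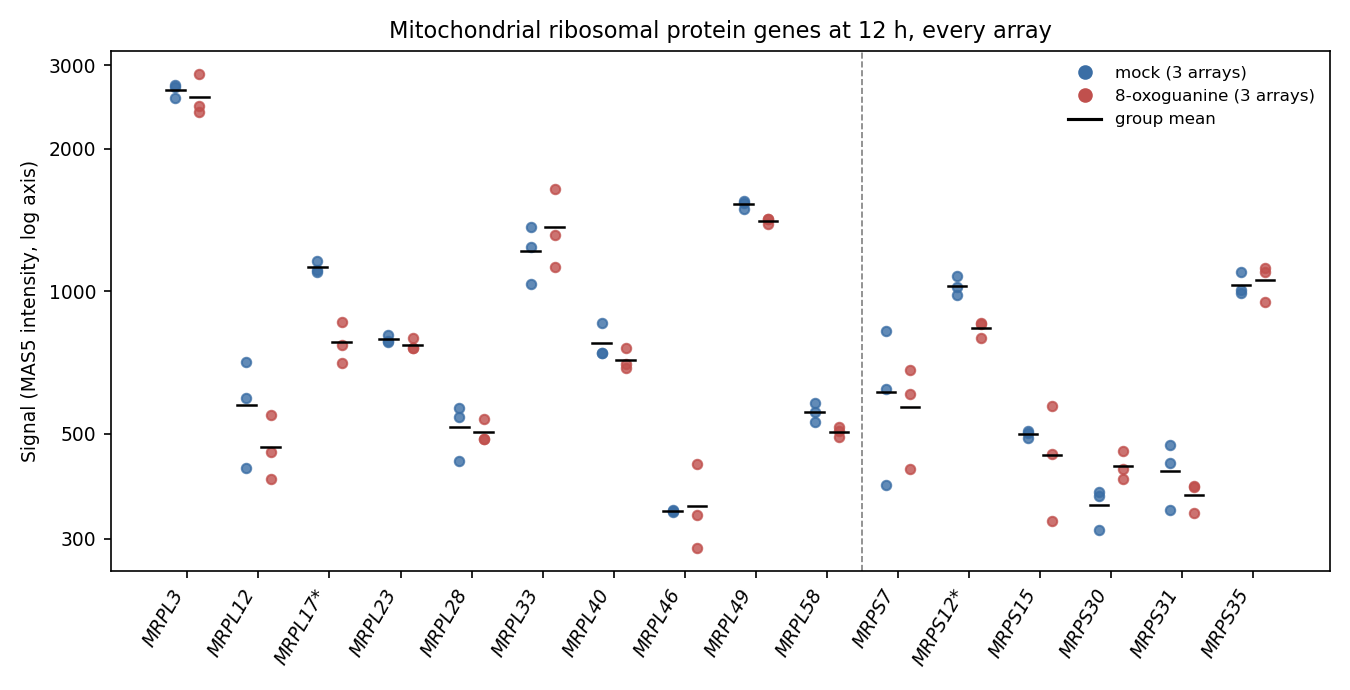
Signal of the 16 genes on each 12 h array (log axis), mock in blue and treated in red, with group means as bars, large subunit symbols left of the dashed line and an asterisk at limma adjusted p under 0.05. The groups separate at MRPL17, MRPS12, MRPL49 and MRPL58 (lower) and MRPS30 (higher), and at 33.9% of all probe sets tested. MRPS7 spans 389 to 824 in mock cells alone.

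MRPL17 belongs to the family of bacterial protein L17 of the large subunit. Its signal was 705, 770 and 861 in the treated extracts against 1109, 1098 and 1160 in mock. The groups did not overlap, and the highest treated array stayed well below the lowest mock array. The means were 779 ± 78.5 in treated and 1122 ± 33.2 in mock cells (SD, n = 3). The log2 fold change was -0.53, a treated level of 69.2% of mock (SE 0.09, 95% interval -0.73 to -0.33, limma adjusted p = 0.00483).

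MRPS12 encodes the counterpart of bacterial protein S12, which sits at the decoding centre of the small subunit. Its signal was 855, 852 and 795 in the treated extracts against 983, 1074 and 1020 in mock, with no overlap. The means were 834 ± 33.8 and 1026 ± 45.7 (SD, n = 3). The log2 fold change was -0.30, a treated level of 81.3% of mock (SE 0.08, 95% interval -0.47 to -0.13, limma adjusted p = 0.0319). The call was lost without any one of the 6 arrays (adjusted p = 0.0537 to 0.0881) and without the intensity trend (0.0726), with a log2 fold change of -0.33 to -0.26 over the alternatives, while MRPL17 passed under all 14 alternatives (adjusted p = 0.00383 to 0.0254).

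The groups failed to overlap at 3 more genes that did not pass. MRPL49, a protein of the mitochondrial large subunit only, had 1417, 1423 and 1387 treated against 1487, 1550 and 1537 mock. This is a gap of small size between tight groups. The log2 fold change was -0.11 with an SE of 0.07 (limma adjusted p = 0.294). MRPL58, a peptidyl-tRNA hydrolase that frees stalled mitochondrial ribosomes and is built into the large subunit, had 507, 516 and 491 treated against 528, 556 and 580 mock. Its log2 fold change was -0.13 with an SE of 0.09 (limma adjusted p = 0.355). MRPS30 went the other way, with 460, 422 and 401 treated against 370, 313 and 377 mock. Its log2 fold change of 0.28 (SE 0.11, 95% interval 0.02 to 0.53) did not pass after adjustment (limma adjusted p = 0.143). In all, 4 genes lay wholly lower and 1 wholly higher in treated cells, 5 of 16 against 33.9% of all probe sets, of which 16.5% were lower and 17.4% higher.

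Among the MRPL genes on the 12 h array, 1 of 10 passed, 8 lay below 0 and the median log2 fold change was -0.08. MRPL3, a core protein near the peptidyl transferase centre, had the strongest signal, 2459, 2384 and 2869 treated against 2559, 2730 and 2700 mock. The groups overlapped, and the log2 fold change was -0.06 with an SE of 0.08 (limma adjusted p = 0.722). MRPL23, a protein at the exit of the peptide tunnel, varied little, with 771 ± 21.0 in treated and 791 ± 13.5 in mock cells (SD, n = 3). MRPL12, the stalk protein that engages translation factors, had 456, 546 and 400 treated against 708, 424 and 594 mock. Its groups overlapped, since mock replicate 2 was lower than 2 of the treated arrays, and its log2 fold change was -0.28 with an SE of 0.18 (limma adjusted p = 0.359).

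MRPL33, in the family of bacterial L33, had 1317, 1645 and 1127 treated against 1240, 1037 and 1366 mock. The groups overlapped, and its log2 fold change of 0.16 (SE 0.14) was the highest of the MRPL genes. MRPL46, found in mitochondria only, was the dimmest member, with 287, 432 and 337 in the treated extracts against 343, 345 and 342 in mock. The mock arrays agreed closely and lay inside the treated range. The groups overlapped as well at MRPL28, which had a log2 fold change of -0.02 (SE 0.12), and at MRPL40, at -0.12 (SE 0.09). Signals of different probe sets do not compare the amounts of their messages.

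Among the MRPS genes, 1 of 6 passed, 4 lay below 0 and the median log2 fold change was -0.11. The sign of this median rested on a few arrays: it was 0.07 without 8-oxoguanine replicate 3, 0.01 without mock replicate 3 and -0.22 without mock replicate 2. MRPS7, which binds the RNA of the head of the subunit in bacterial ribosomes, had 607, 682 and 420 treated against 622, 389 and 824 mock. The mock arrays alone differed by more than the groups did, and the log2 fold change was -0.07 (SE 0.26). MRPS15 had 453, 571 and 327 treated against 489, 501 and 507 mock, so the treated arrays scattered around a tight mock group. MRPS31 had 386, 387 and 341 treated against 434, 344 and 474 mock, again with overlap. MRPS35 differed least in this subunit, with a log2 fold change of 0.03 (SE 0.09).

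The 95% interval lay within 1.5-fold either way for 13 of the 16 genes and within 2-fold for all 16. The genes whose interval reached past 1.5-fold were MRPL17, MRPL12 and MRPS7. Split by descent, 2 of 9 genes of bacterial ribosomal protein families passed and 8 lay below 0, with a median of -0.07. Of the 7 genes outside these families none passed, with 4 below 0 and a median of -0.11. Among all probe sets tested, 13.2% passed and 48.6% lay below 0. The difference between the classes of descent was not tested.

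**Figure D2:**
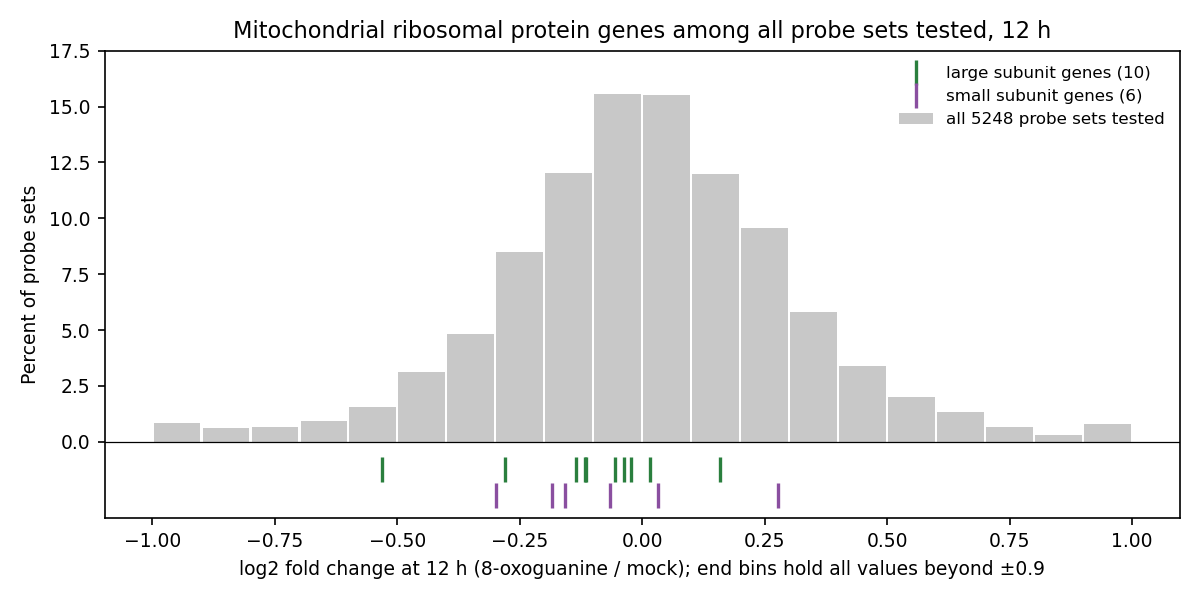
Percent of the 5248 tested probe sets in each bin of the 12 h log2 fold change (grey bars), with ticks for the 10 large and 6 small subunit genes below. The genes lie between -0.53 and 0.28, around a median of -0.09.

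Genes of this group differed in how well the extracts of a treatment repeated. The SD of log2 signal within a group, pooled over both groups, had a median of 0.12 over the 16 genes and 0.15 over all probe sets. MRPS7 had 0.46, exceeded by 2.76% of probe sets, and MRPL12, MRPS15 and MRPL33 had 0.31, 0.29 and 0.24. All 6 MRPS genes and 5 of the 10 MRPL genes had their lowest treated signal on 8-oxoguanine replicate 3. That array was the lowest treated one at 37.5% of all probe sets. On mock replicate 2, 4 of 6 MRPS and 4 of 10 MRPL genes had their lowest mock signal, against 35.7%. The mean log2 signal of the 16 genes, relative to each gene's mean over the arrays, was -0.06, 0.06 and -0.14 for treated replicates 1 to 3 against 0.07, -0.04 and 0.11 for mock. The groups overlapped on this mean, and 8-oxoguanine replicate 3 was the lowest. The actin 3′ to 5′ ratio was lowest on these same arrays within their groups, 0.999 and 0.889, while the GAPDH ratio was highest on them, 0.843 and 0.826. Their part in the scatter was not tested.

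**Figure D3:**
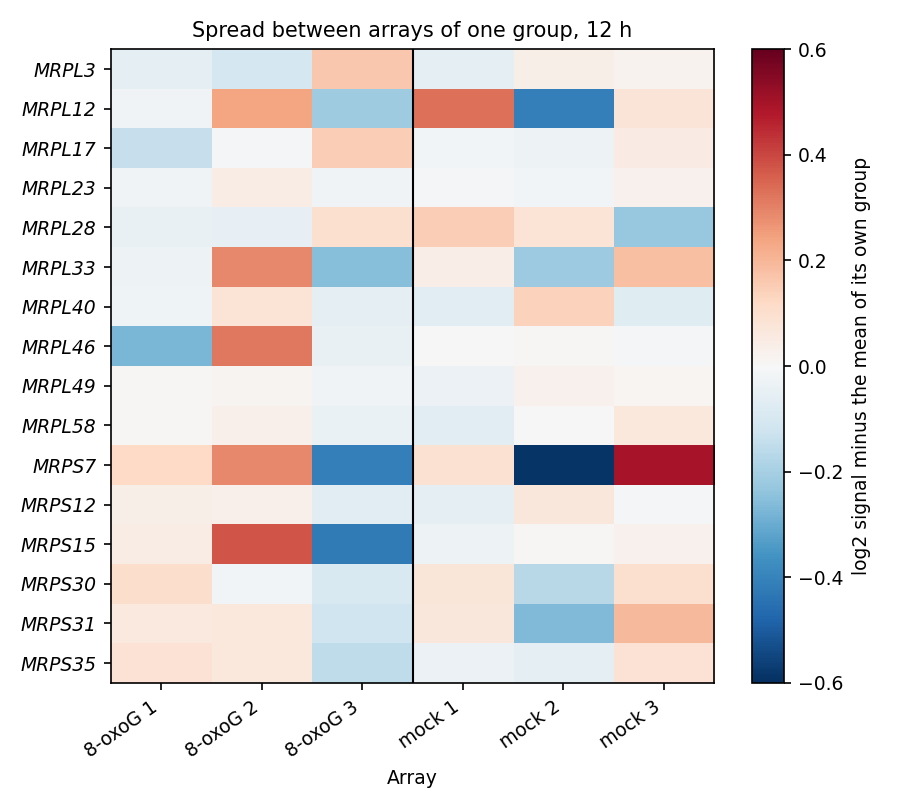
Log2 signal of each gene on each 12 h array minus the mean of its own group of 3 arrays, blue for lower and red for higher. MRPS7 is low on 8-oxoguanine 3 and mock 2. All 6 MRPS genes and 5 of the 10 MRPL genes are at their lowest treated value on 8-oxoguanine 3.

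At 6 h there was 1 array per treatment, so the ratios have no replicate check and no test. Of the 51 genes, 49 had a mean signal above the limit of 148, 30 of the large and 19 of the small subunit. MRPL41 (7.50 treated, 9.24 mock) and MRPS18C (19.8 and 40.9) were too dim. Of the 49, 30 were higher and 19 lower on the treated array, with a median log2 ratio of 0.04 against -0.03 over 11108 probe sets, of which 45.6% were higher. Quantile normalization gave 35 higher, and centring each array on its median, which adds 0.12 to each ratio, gave 37. The share of genes that were higher was thus 61.2%, 71.4% and 75.5%, beside 45.6%, 52.9% and 61.1% of all probe sets under the same scalings. The median was 0.06 for the large and 0.00 for the small subunit genes, and 0.13 and 0.08 after quantile normalization.

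The 6 h arrays also differed in range. The highest signal was 22762 on the treated and 10699 on the mock array, and the 12 fibroblast markers had a median log2 ratio of 0.77, with 7 of them 1.5-fold or more higher, which became 0.12 after quantile normalization. The part of this difference in the ratios of single genes was not tested beyond the scalings given.

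The treated and mock signals differed by 1.5-fold or more for 3 of the 49 genes, 1 higher and 2 lower, against 8.76% of all probe sets (3.32% higher and 5.44% lower). MRPL46 read 558 treated against 336 mock, for a log2 ratio of 0.73. MRPL19, of the family of bacterial L19, had 250 and 544, a log2 ratio of -1.12, the lowest of the group. MRPS15 had 481 and 777, a log2 ratio of -0.69. With median centring MRPS14 passed 1.5-fold, at 0.60, and MRPS15 no longer did, at -0.58. Next to these, MRPS14 had 979 and 697 (0.49) and MRPL4 970 and 738 (0.40) on the higher side, and MRPS11 had 575 and 749 (-0.38) on the lower side. MRPL57 had 1421 treated and 1788 mock (-0.33), with its other probe sets at -0.74 and -0.37, the same direction in each. The ratios of MRPS14 (0.49, and -0.43 for a dim probe set) and MRPS18B (0.11 and -0.37) went opposite ways on different probe sets, and the mean of the probe sets gave 0.03 and -0.13. So did those of MRPL20 (-0.04, and 0.69 for a dim probe set), with a mean of 0.33, and MRPS18A (-0.01 and 0.09), with a mean of 0.04. MRPS30 and MRPS31 kept their sign on their second probe sets (-0.51 and -0.33).

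**Figure D4:**
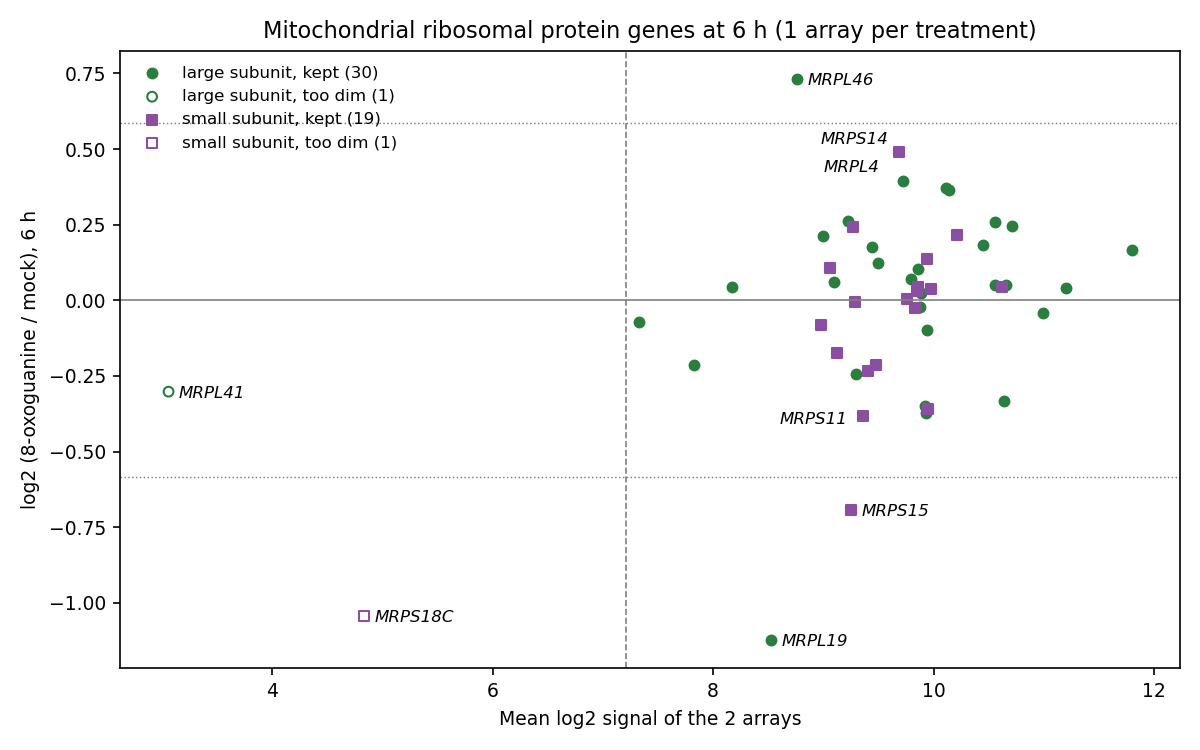
Log2 ratio of the treated to the mock array at 6 h against the mean log2 signal, for 51 genes, with the limit on dim probe sets dashed and 1.5-fold dotted. MRPL46, MRPL19 and MRPS15 are the kept genes beyond 1.5-fold, and most others lie near 0.

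All 16 genes of the 12 h array were read by the same probe set at 6 h. MRPL17 read 1280 treated against 995 mock at 6 h, for a log2 ratio of 0.36, against its fall at 12 h. MRPS12 had 1279 and 1100, a log2 ratio of 0.22, also against a fall at 12 h, and its 3 dim probe sets gave 0.06, -0.03 and -0.74. The sign was the same at both times for 8 of the 16 genes, for 7 with quantile normalization of the 6 h arrays and for 6 with median centring. The share over all probe sets on both array types was not counted. Across the 16 genes, which share arrays and are not replicates, Pearson's r between the times was -0.14 and Spearman's rho -0.15. Time, array type and array number differ together, and no test of 6 h against 12 h was made.

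**Figure D5:**
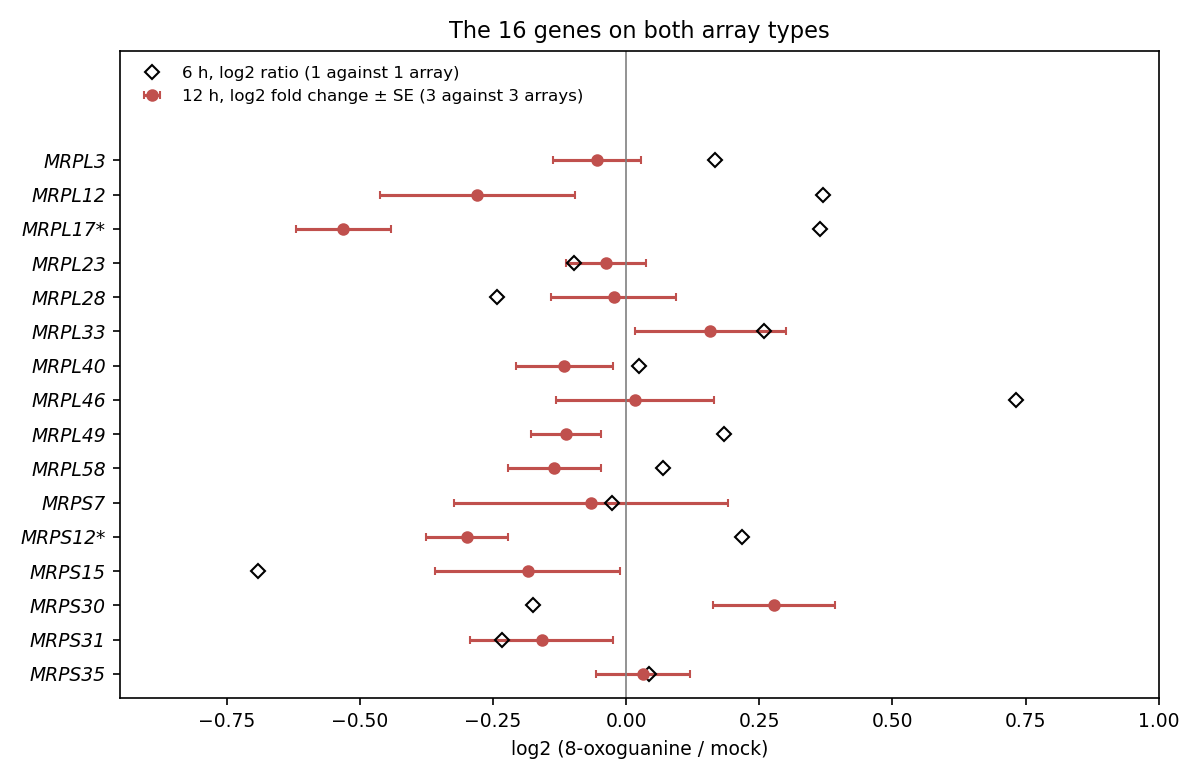
Log2 of treated over mock for the 16 genes on both array types, as 12 h fold change ± SE (red, 3 against 3 arrays, asterisk for adjusted p under 0.05) and 6 h ratio (open diamonds, 1 against 1 array). MRPL17 is at -0.53 and 0.36, and MRPS12 at -0.30 and 0.22.

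Several of these genes stand head to head with a neighbour, their starts within 1000 bases on opposite strands. By the RefSeq promoter entries this held for 12 of 45 genes with a protein-coding neighbour, 26.7%, against 12.3% of protein-coding genes. MRPS12 starts 181 bases from SARS2, the mitochondrial seryl-tRNA synthetase, which at 6 h had 235 treated and 212 mock, a log2 ratio of 0.15 beside 0.22 for MRPS12. MRPL49 starts 49 bases from FAU, which encodes a ubiquitin-like protein fused to a cytosolic ribosomal protein. FAU had 5519 ± 156 in treated and 5090 ± 124 in mock cells at 12 h (SD, n = 3), and its log2 fold change was 0.12 with an SE of 0.06 (limma adjusted p = 0.263). Its treated arrays all lay above its mock arrays, whereas those of MRPL49 all lay below, and neither gene passed. MRPL40 starts 812 bases from HIRA, a histone chaperone, whose 12 h log2 fold change was 0.30 with an SE of 0.18 (limma adjusted p = 0.318). MRPL46 and MRPS11 face each other across 320 bases, and at 6 h their log2 ratios were 0.73 and -0.38.

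Of the other genes of mitochondrial gene expression, 2 of 19 above the limit passed at 12 h, 10.5% beside 13.2% of all probe sets. None of 3 translation factors above the limit passed, and TUFM, the elongation factor that brings tRNA to the ribosome, had a log2 fold change of 0.03 (SE 0.08). None of 6 genes in the list of aminoacyl-tRNA synthetases, which includes the amidotransferase subunit GATB, passed, and their median was 0.22. GARS1, which serves the cytosol as well, came nearest, at 0.26 with an SE of 0.08 (limma adjusted p = 0.0532). DAP3, a protein of the small subunit without an MRP symbol, and OXA1L, the insertase that receives the nascent chains, had -0.08 (SE 0.10) and 0.30 (SE 0.13), and neither passed. Of 3 genes of assembly and RNA modification, HSD17B10, a subunit of mitochondrial RNase P, fell by 0.45 with an SE of 0.10 (limma adjusted p = 0.0199). Of 5 genes of transcription and RNA handling, ELAC2, which trims the 3′ ends of mitochondrial tRNAs, fell by 0.67 with an SE of 0.14 (limma adjusted p = 0.0127), while TFAM and POLRMT did not pass (0.06, SE 0.10, and 0.11, SE 0.11).

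Of 18 import and processing genes, 2 rose and 2 fell, while the other 14 did not pass. The 4 are 22.2% of the list, beside 13.2% of all probe sets, of which 6.59% rose and 6.65% fell. The list's median log2 fold change was -0.13. HSPE1, the mitochondrial co-chaperonin, fell by 0.50 (SE 0.11), and TIMM17A, of the inner membrane translocase, by 0.34 (SE 0.07). HSPA9, the matrix chaperone that pulls proteins in, rose by 0.30 (SE 0.07), and TOMM20, an outer membrane receptor, by 0.27 (SE 0.07), with limma adjusted p = 0.0161 to 0.0239 for these 4. Of 5 regulators of mitochondrial gene transcription, GABPB1, a subunit of GABP, rose by 0.67 with an SE of 0.12 (limma adjusted p = 0.00697), and NRF1, YY1, MYC and ESRRA did not pass. In all 7 of 42 genes in these lists passed, 16.7% beside 13.2% of all probe sets, and the count was 1 without 8-oxoguanine replicate 1, 4 without 8-oxoguanine replicate 2, 3 without mock replicate 3 and 2 without the intensity trend. The count over all probe sets, 695, was 371, 383, 450 and 484 in the same order. Median centring gave 9 in these lists and 682 over all probe sets, and quantile normalization gave 8 and 732.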

How the data were processed

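Each deposited value is a linear intensity of a probe set. The submitters' processing notes name MAS5, with no version or settings in the sources used here. The 2% trimmed mean of every array was 500.1 to 500.5, so the deposited intensities had been scaled to a common level. Array medians were 143 to 165.

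Log2 of the intensity was taken without further scaling and control probe sets were left out. The limit on dim probe sets was the 40th percentile of mean log2 signal at 12 h, which kept 5248 of 8746, and the 50th at 6 h, which kept 11108 of 22215. Treated and mock at 12 h entered limma 3.58.1 under R 4.3.3, with lmFit and a trended eBayes (prior variance following mean signal, the intensity trend), two-sided, adjusted by Benjamini-Hochberg at a threshold of 0.05, after the test was tested on simulated data. Every adjusted p is from this fit unless another setting is named. The 12 h arrays follow the time label, although the treatment protocol names 6 h for all samples.

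Symbols came from the platform annotation and were those of RefSeq (GRCh38.p14) for all 51 genes. At 6 h 19064 probe sets had 1 symbol, 1043 several and 2108 none, and at 12 h 7840, 388 and 518. Promoter sequences are RefSeq's. The NRF1 and YY1 motifs were first counted with 10 letters and then shortened to 9 for printing, and both counts are given. Full values were given for genes past the threshold or without overlap, the 3 brightest and 3 dimmest, and the 3 highest and lowest 6 h ratios, and up to 4 passing genes of other lists. MRPL12, MRPL23, MRPS7 and MRPS15 at 12 h, MRPL57 and the probe sets that disagree, the promoters, motifs and head-to-head neighbours were chosen after their values were seen. The members and lists were chosen with earlier results of these data known. Alternatives were median centring, quantile normalization, no or a stricter limit (60th and 70th percentiles), adding the 20th percentile of signals ahead of log2, no trend, a replicate block, averaging the probe sets of a gene, and each 12 h array left out.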

Additional observations from a re-analysis of the deposited data

Results flagged for a closer look

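For 5 genes the 12 h arrays of the groups did not overlap and the 6 h ratio had the opposite sign. Among all probe sets tested at 12 h, the groups did not overlap at 33.9%, and 45.6% of those kept at 6 h were higher. Neither share is that of opposite signs, and how many probe sets in all met both conditions was not counted. The 5 genes are therefore not shown to differ from other probe sets. The log2 ratio at 6 h was 0.36 for MRPL17, 0.22 for MRPS12, 0.18 for MRPL49, 0.069 for MRPL58 and -0.17 for MRPS30, against log2 fold changes of -0.53, -0.30, -0.11, -0.13 and 0.28 at 12 h. The 6 h signs held with quantile normalization (0.44, 0.29, 0.24, 0.15 and -0.08). No test of 6 h against 12 h was made, since there was 1 array per treatment at 6 h and the array types differ.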

How the results depend on the processing

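At 12 h, 2 genes passed under 6 of the 14 alternatives, and 1 did, lower in treated cells, without the intensity trend, with the replicate block and without each array in turn (1 to 1). MRPL17 was the gene that passed in all 14. The call of MRPS12 was lost in these 8 (with the replicate block, adjusted p = 0.0636). The median of -0.09 was -0.15 to -0.07 without single arrays. Genes of the other mitochondrial lists that passed, 7 of 42, were 2 without the trend, 6 with the replicate block and 1 to 7 without single arrays. They were 9 with median centring, 8 with quantile normalization and 8 of 34 with the limit at the 60th percentile. The sign of some genes that never passed changed: MRPS35 turned without 8-oxoguanine replicate 1 or 2 (-0.0124 to 0.106 over the 6 arrays left out), MRPL28 turned without 8-oxoguanine replicate 2 or mock replicate 1 or 2 (-0.138 to 0.0498 over the 6 arrays left out), MRPL46 turned without 8-oxoguanine replicate 2 (-0.142 to 0.153 over the 6 arrays left out), MRPS15 turned without 8-oxoguanine replicate 3 (-0.375 to 0.0281 over the 6 arrays left out) and MRPS7 turned without 8-oxoguanine replicate 3 or mock replicate 3 (-0.359 to 0.182 over the 6 arrays left out). The cause was not tested. Same-numbered extracts showed no shared deviation (correlations 0.08, -0.15 and -0.05 across probe sets), and the numbers were not taken as pairs. With 3 arrays per group such correlations are few and depend on each other, so they do not settle whether extracts were paired. The replicate block gave 513 calls in all against 695. Between treated and mock arrays of different numbers, 8-oxoguanine replicate 3 had the lowest correlation, -0.18 with mock replicate 1. It also had the highest, 0.20 with mock replicate 2.

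At 6 h the median of 0.04 was 0.16 with median centring, where 2 genes were 1.5-fold or more higher and 1 lower. The limit at the 70th percentile left 44 genes, with 0 higher and 1 lower, and MRPL46 and MRPL19 were among those it removed. With 1 array per treatment at 6 h, the spread between arrays there is not known.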
